A study of Homo sapiens with 10 samples.

Results

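The alpha- and beta-globin gene loci of human cells were described by CUT&RUN, an assay in which a nuclease tethered to an antibody releases the DNA around the bound protein for sequencing. The alpha locus was taken as the 1-kb bins of chromosome 16 from 130000 to 235000 and the beta locus as those of chromosome 11 from 5240000 to 5315000, both in hg19. Together they hold 180 of 2820626 binned kilobases, 105 in the alpha locus and 75 in the beta locus. The 9 member genes are HBZ, HBA2, HBA1 and HBQ1 in the alpha locus and HBB, HBD, HBG1, HBG2 and HBE1 in the beta locus. The members were chosen by position, not by a measured value.

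K562 is an established leukemic line with erythroid properties, and HepG2 is an established hepatocyte-like line. Cells that were irradiated received 6 Gy from a 60Co source. K562 libraries of gamma-H2AX were made after 1 h of recovery (n = 2) and after 24 h (n = 2), and HepG2 gamma-H2AX was measured after 1 h (n = 1). H2AX libraries, for which the labels give no irradiation, came from K562 (n = 2) and HepG2 (n = 2). H3K27me3 was measured in irradiated K562 after 1 h (n = 1). The antibody field of the 4 H2AX libraries names histone H4 while their titles name H2AX, so which histone they report could not be told from the labels. No gamma-H2AX library of cells without irradiation was analysed here, so a gamma-H2AX level cannot be split into what was there before and what irradiation added. The labels do not say that replicates came from separate cultures, so p-values measure only the spread between libraries, which may be technical.

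Hemoglobin is built from alpha-type and beta-type globin chains that are made in turn during development. In the alpha locus, HBZ encodes the embryonic zeta chain, HBA2 and HBA1 encode the alpha chain of fetal and adult hemoglobin, and HBQ1 encodes theta globin. In the beta locus, HBE1 encodes the embryonic epsilon chain, HBG1 and HBG2 the fetal gamma chains, HBD the minor adult delta chain and HBB the adult beta chain. Each locus is driven from a distance: the alpha genes by enhancers that lie upstream of HBZ within and beside the gene NPRL3, chief among them HS-40, and the beta genes by the locus control region upstream of HBE1, with hypersensitive sites HS1 to HS5. K562 cells are known to make embryonic and fetal globins and HepG2 cells are known not to. H2AX is a histone variant, gamma-H2AX is its form phosphorylated on chromatin around DNA breaks, and H3K27me3 is a histone mark of Polycomb-silenced chromatin.

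The sequences printed here show one promoter of each locus, since the levels below are read over such starts. RefSeq promoter sequence was at hand for 1 of the 9 members, HBD, and for the alpha-type neighbour HBM, which encodes mu globin. The 250 bases upstream of each start site are printed 5′ to 3′ on the strand of the gene. Capitals mark matches to 4 short motifs, each searched on both strands. They are the GATA-factor motif GATAA, the CACCC-box motif CCACCC, the CCAAT box and the TATA-like motif ATAAA, and none of the matches overlap. Coordinates of both are in GRCh38.p14 and not in hg19, chr11:5234484-5234733 on the minus strand for HBD and chr16:165728-165977 on the plus strand for HBM.
HBD: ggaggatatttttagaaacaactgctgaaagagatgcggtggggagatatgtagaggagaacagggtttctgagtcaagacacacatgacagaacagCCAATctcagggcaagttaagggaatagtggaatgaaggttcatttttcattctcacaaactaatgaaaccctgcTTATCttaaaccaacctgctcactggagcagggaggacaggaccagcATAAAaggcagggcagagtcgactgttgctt
HBM: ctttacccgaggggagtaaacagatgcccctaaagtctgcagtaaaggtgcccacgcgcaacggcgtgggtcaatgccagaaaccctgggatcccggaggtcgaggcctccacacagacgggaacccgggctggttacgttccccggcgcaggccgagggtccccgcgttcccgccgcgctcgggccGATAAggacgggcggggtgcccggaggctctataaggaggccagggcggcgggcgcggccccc
The HBD promoter had a GC content of 45.2% and the HBM promoter one of 69.2%. HBD held the GATA-factor motif on the opposite strand, 78 bases upstream of the start, the letters CCAAT 153 bases upstream and the TATA-like motif 31 bases upstream. Whether the CCAAT match serves as a promoter element was not tested. HBM held the GATA-factor motif 63 bases upstream and no match to the letters of the other 3 motifs in this window. Its printed sequence does hold the letters tataa near the start site, which a search for ATAAA does not match. Of 35116 promoters of the same length, 20.4% held the GATA-factor motif, 31.3% the CACCC-box motif, 32% the CCAAT box and 32.7% the TATA-like motif on either strand, so each match is a description only. In the 1-kb bin that was taken to hold the HBD start, gamma-H2AX at 1 h in K562 stood at 2.25 and 3.40 times the mean of its library, against 1.63 and 1.61 for H2AX. The HBM start bin gave 1.01 and 2.72 against 0.861 and 0.695.

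All values below are levels, that is the read depth of a bin or stretch divided by the mean depth of its library over all bins, so 1 is the average of that library. The mean depth corresponded to 7.89 to 29.5 reads per kb, the lowest in 24 h replicate 1 and the highest in 1 h replicate 2. Low depths were multiples of 60 bp in 3 libraries, those of K562 at 1 h, and of 41 bp in the other 7, a sign of different read lengths, so read length and group cannot be told apart in K562 1 h comparisons. A 200-kb segment of 9p21 that is known to be lost in K562 read 0 to 0.00661 in the K562 libraries and 0.965 to 0.994 in the HepG2 libraries, so the lines read as labelled. Positions of genes and elements are textbook hg19 positions rounded to whole bins, and the spacing of the members differed by at most 198 bp from that in RefSeq GRCh38.p14. One library stood apart: in K562 24 h replicate 1 the track read 0 in 94 of 105 alpha bins and 63 of 75 beta bins, against 36.2% of all bins. Over the genome, the highest mean 1 h depth of a bin where this track was above 0 was 1.64 reads per base. Every bin above 1.64 thus reads 0 by definition. Such bins made up 33.1% of all bins and numbered 92 in the alpha locus and 63 in the beta locus. Replicate 2 of the 24 h group read 0 in 1 alpha bin and in 0 beta bins. Main results at 24 h therefore rest on replicate 2 alone, and values with replicate 1 are given beside them.

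In irradiated K562 cells at 1 h, the gamma-H2AX level over both loci was higher than the H2AX level. Each level is relative to the mean of its own library, so the amounts of the 2 cannot be compared. The level over the whole alpha locus was 1.91 and 2.60 in the 2 gamma-H2AX libraries and 1.25 and 1.13 in the 2 H2AX libraries, a ratio of means of 1.90. Over the beta locus it was 1.95 and 1.91 against 1.34 and 1.36, a ratio of 1.43. The groups did not overlap in either locus. Over the genome, both gamma-H2AX libraries lay above both H2AX libraries in 31.5% of 5-kb windows tested and below both in 41.8%. Lack of overlap, here and at single genes below, is thus a description and not a test. The difference extended beyond the globin genes: in the 100 kb on either side the ratio was 2.17 below and 1.43 above the alpha locus, and 1.69 below and 1.58 above the beta locus.

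The same comparison was tested in 5-kb windows over the whole genome, with limma on log2(level + 0.05) and Benjamini-Hochberg adjusted p under 0.05. All 36 windows of the loci were among the 545744 tested. Gamma-H2AX at 1 h was higher than H2AX in 14 of 21 alpha windows and 7 of 15 beta windows and lower in 0 of either, while over the genome 45.4% of windows differed, 13.5% higher and 31.9% lower. The median log2 difference was 0.83 in the alpha locus and 0.67 in the beta locus, against −0.10 over all windows tested. These medians exceeded 90.6% and 85.3% of all windows. Adding 24 h replicate 1 to the fit left the differences as they were but took the share called over the genome from 45.4% to 0%, and so 0 of 36 windows of the loci passed. Without K562 H2AX replicate 1 there were 4, with 23.8% of all windows called, and without replicate 2 there were 5, with 24.1% called. The locus medians in those fits were 0.89 and 0.77 in the alpha locus and 0.53 and 0.70 in the beta locus. None of the 21 windows reversed under the alternatives run.

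**Figure D1:**
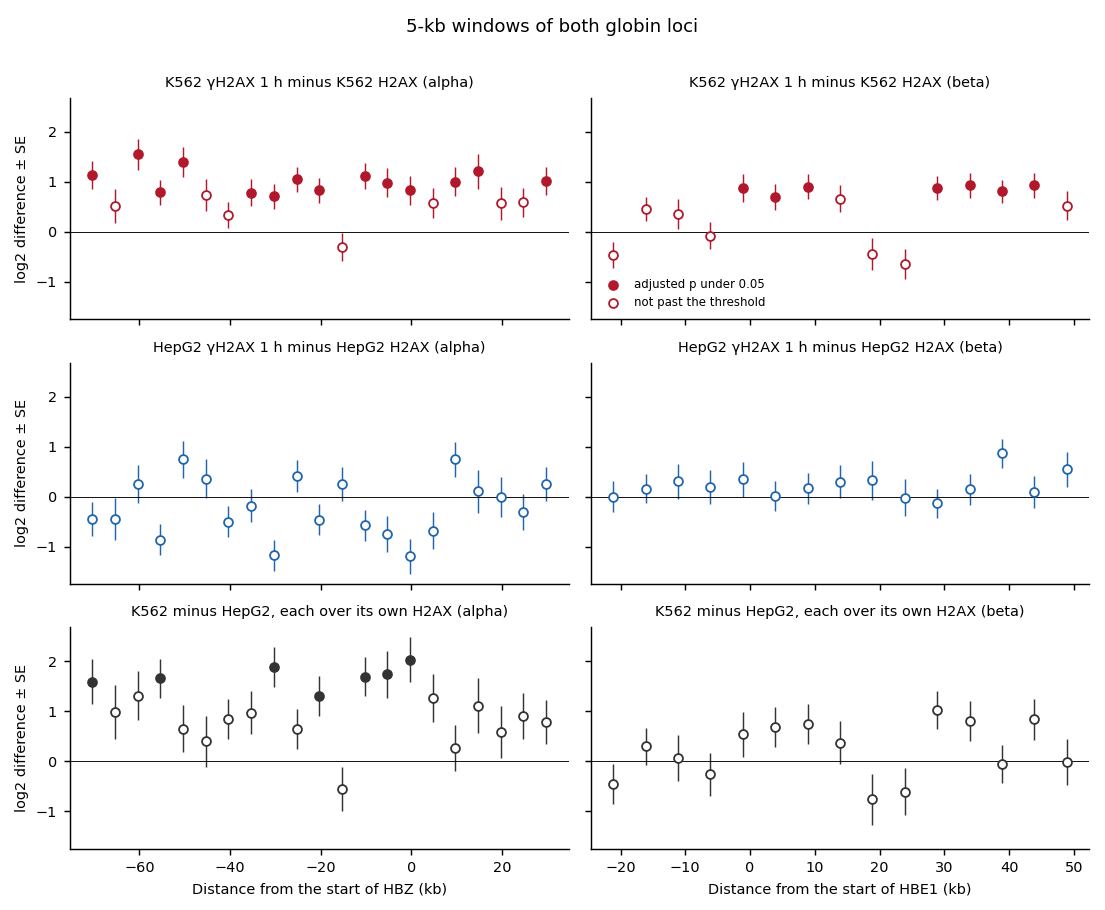
Log2 differences ± SE of the 5-kb windows of both loci, plotted by distance from the start of HBZ (left column) or HBE1 (right column) in the direction of transcription; filled points passed the threshold. In the top row 14 of 21 alpha and 7 of 15 beta windows were higher at 1 h in K562, in the middle row 0 windows passed in HepG2, and in the bottom row 7 alpha windows and 0 beta windows differed between the lines.

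The embryonic alpha-type gene HBZ was among the genes that stood higher. Its 3-kb stretch gave 1.31 and 1.93 for gamma-H2AX at 1 h and 0.819 and 0.625 for H2AX in K562, so both gamma-H2AX libraries lay above both H2AX libraries. The window that holds HBZ, from 200001 to 205000, differed by 0.83 on the log2 scale (SE 0.28, adjusted p = 0.027 by limma). HBQ1, the theta-globin gene at the far end of the cluster, gave 2.16 and 1.75 against 0.860 and 0.840, and its window differed by 1.03 (SE 0.28, adjusted p = 0.0084 by limma).

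At the 2 alpha-chain genes between them gamma-H2AX was not seen above H2AX. HBA2 gave 0.168 and 0.473 for gamma-H2AX at 1 h, against 0.526 and 0.431 for H2AX, so the groups overlapped. HBA1 gave 0.812 and 0.767 against 0.855 and 0.826, both gamma-H2AX libraries just below both H2AX libraries. Their windows gave 0.57 (SE 0.33, adjusted p = 0.17) and 0.59 (SE 0.29, adjusted p = 0.11) in limma and did not pass. Both genes were low in every library: the bin at the HBA2 start held 0 to 7 reads per library and read at most 0.438, and the bin at the HBA1 start read at most 0.714. HBA2 and HBA1 are near-identical copies, as are HBG1 and HBG2, so reads may have been split or dropped between them and their levels are uncertain. With the stretch widened by 1 kb on each side the log2 ratio of gamma-H2AX to H2AX turned from −0.51 to 0.22 at HBA2 and from −0.09 to 0.43 at HBA1, so the sign at both genes depends on where the stretch ends.

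The other genes of the alpha cluster had ratios of 2.18 to 3.16. HBM gave 0.828 and 2.01 against 0.828 and 0.471. The pseudogene HBAP1 gave 2.26 and 3.75 against 0.672 and 1.23, and the pseudogene HBZP1 gave 0.948 and 1.15 against 0.484 and 0.349, in both cases without overlap. The window from 215001 to 220000, which holds HBM and HBAP1, differed by 1.22 (SE 0.35, adjusted p = 0.012 by limma). Averaged over the 33 kb from HBZ to the end of the interval, the cluster gave 1.44 and 1.95 against 0.909 and 0.876.

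Upstream of HBZ the levels of both gamma-H2AX and H2AX were higher, while their ratio was similar. The ratio was 1.89 from the lower end of the locus to the end of NPRL3, 1.96 between NPRL3 and HBZ and 1.90 over the cluster. NPRL3, whose introns house the alpha enhancers and whose product belongs to a complex that restrains mTORC1, gave 2.15 and 2.82 for gamma-H2AX at 1 h against 1.47 and 1.22 for H2AX. MPG, which encodes a DNA glycosylase of base excision repair and lies beyond NPRL3, gave 2.07 and 3.65 against 1.22 and 1.32. The largest difference of the locus, 1.55 (SE 0.31, adjusted p = 0.0014 by limma), was in NPRL3 in the window from 140001 to 145000. It was followed by the window from 150001 to 155000, at 1.40 (SE 0.30, adjusted p = 0.0021). The smallest was −0.30 (SE 0.28, adjusted p = 0.40 by limma), in the window from 185001 to 190000 around the start of NPRL3. There gamma-H2AX read 0.787 and 0.901 and H2AX 1.06 and 1.04.

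**Figure D2:**
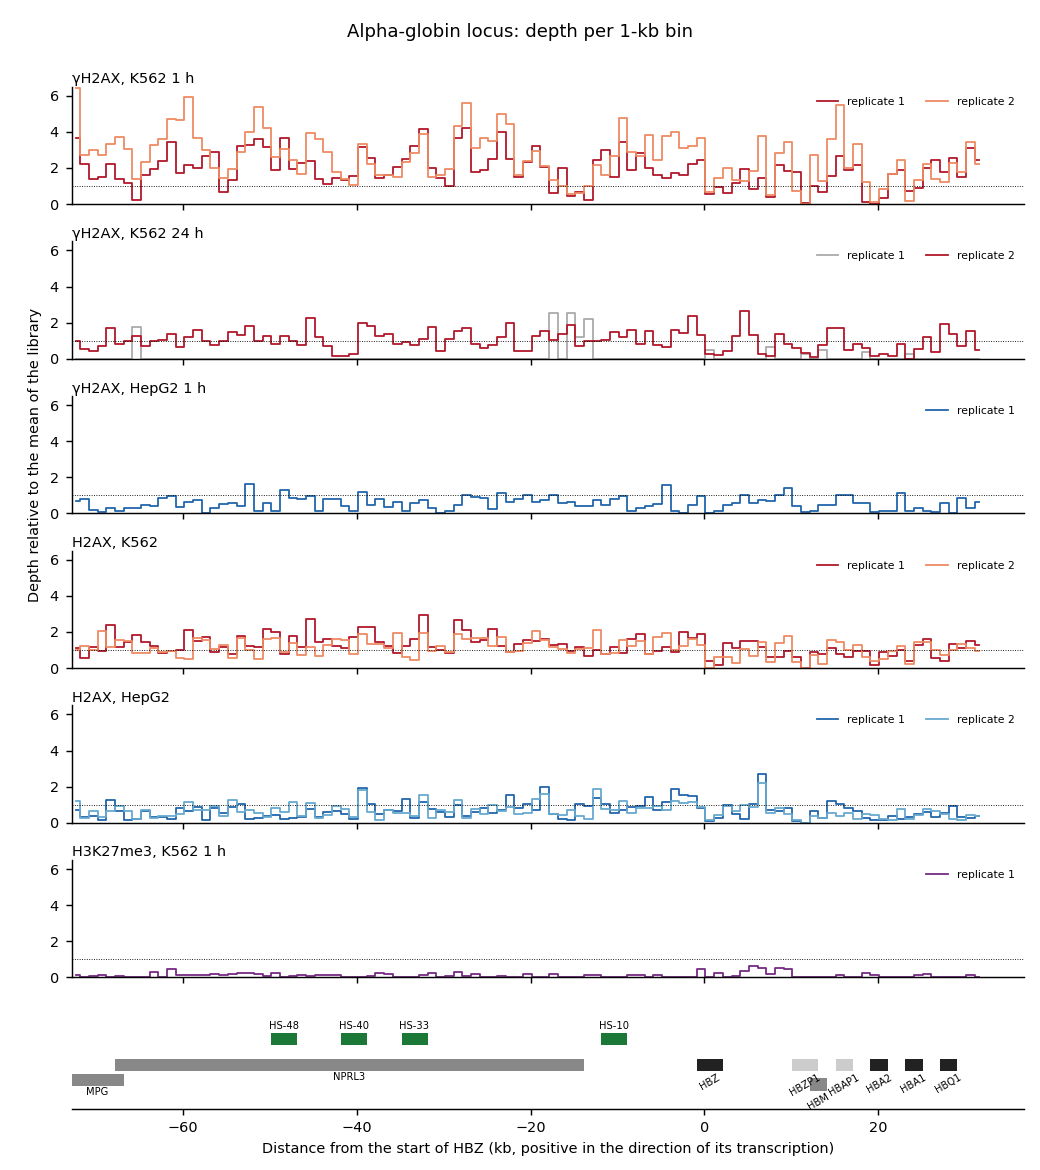
Levels in the 1-kb bins of the alpha locus in all 10 libraries, plotted against the distance from the start of HBZ in kb; the dotted line is the mean of each library, and boxes mark genes, pseudogenes and enhancer stretches. K562 gamma-H2AX at 1 h averaged 1.91 and 2.60 over the locus and came close to 0 in single bins at HBZP1 and HBA2, and HepG2 libraries stayed at 0.553 to 0.671 on average.

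All 4 alpha enhancer stretches had both gamma-H2AX libraries above both H2AX libraries. HS-40, the major alpha enhancer, had the smallest ratio, 1.28, from 2.02 and 1.94 for gamma-H2AX against 1.69 and 1.39 for H2AX. HS-48 gave 2.50 and 2.70 against 1.51 and 1.33, a ratio of 1.84. HS-33 gave 3.28 and 3.02 against 1.92 and 0.999, a ratio of 2.16. HS-10, the nearest to HBZ, gave 2.64 and 3.01 against 0.931 and 1.06, a ratio of 2.84. Both gamma-H2AX libraries lay above both H2AX libraries in 31.5% of all 5-kb windows tested and below both in 41.8%, so 4 enhancers above is a description of this locus and not a test. Of the 6 windows that touch an enhancer 4 were higher, against 14 of 21 over the whole alpha locus and 13.5% of all windows tested. The HS-40 window was not among the 4, at 0.34 (SE 0.25, adjusted p = 0.29 by limma).

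One bin at HS-40 stood out in both lines and was chosen after its values were seen. The bin from 163001 to 164000 read 2.29 and 1.87 for H2AX in K562 and 1.93 and 1.80 in HepG2, and by the mean of each group it ranked 3 in K562 and 2 in HepG2 among the 105 alpha bins. The bin just below it, from 162001 to 163000, read 1.70 and 0.772 in K562 but 0.198 and 0.328 in HepG2. Gamma-H2AX in the first of these bins was 3.17 and 3.36 in K562 at 1 h, 1.97 in K562 24 h replicate 2 and 1.19 in HepG2. The exact 95% Poisson intervals of the HepG2 H2AX levels, which cover counting error only, ran from 1.28 to 2.75 and from 1.20 to 2.61 in the first bin and from 0.0409 to 0.579 and from 0.105 to 0.751 in the second.

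In the beta locus, HBB, the adult beta-chain gene, gave 2.26 and 3.09 for gamma-H2AX at 1 h against 1.26 and 1.55 for H2AX in K562. Its window differed by 0.93 (SE 0.26, adjusted p = 0.0090 by limma). HBD gave 2.15 and 2.67 against 1.51 and 1.34, and its 2 windows differed by 0.81 (SE 0.24, adjusted p = 0.012) and 0.94 (SE 0.25, adjusted p = 0.0076, the largest difference of the locus) in limma. The embryonic gene HBE1 gave 2.45 and 2.36 against 1.40 and 1.12, and its windows differed by 0.70 (SE 0.25, adjusted p = 0.034) and 0.88 (SE 0.29, adjusted p = 0.022) in limma. At these 3 genes both gamma-H2AX libraries lay above both H2AX libraries.

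The fetal genes lay in a trough of the 1 h signal that was not confined to them. HBG1 gave 0.544 and 0.853 for gamma-H2AX at 1 h and 1.05 and 1.23 for H2AX, so both gamma-H2AX libraries were below both H2AX libraries. HBG2 gave 1.18 and 0.967 against 1.02 and 1.29 and overlapped. Over the 8 kb that hold both genes the level was 0.878 and 1.01 against 1.04 and 1.41, a ratio of 0.768. The stretches on either side had ratios of 1.53, between HBD and HBG1, and 1.78, between HBG2 and HBE1. The stretch between HBD and HBG1 takes in bins beside HBG1 that were also low. Its bin from 5268001 to 5269000, outside the genes, read 1.345 and 0.327 for gamma-H2AX against 2.218 and 1.871 for H2AX. At HBG2 the bin from 5276001 to 5277000 read 1.218 and 2.121 against 1.23 and 1.886. Relative to the mean of the beta locus in the same library, the 8 kb stood at 0.451 and 0.527 for gamma-H2AX at 1 h and at 0.778 and 1.04 for H2AX.

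Window by window the trough did not reach the threshold. The window from 5265001 to 5270000, with the pseudogene HBBP1 and the end of HBG1, gave −0.64 (SE 0.30, adjusted p = 0.094 by limma). The next, with HBG1 and HBG2, gave −0.44 (SE 0.32, adjusted p = 0.27), and the window from 5275001 to 5280000, with HBG2, gave 0.67 (SE 0.27, adjusted p = 0.058). HBBP1 itself gave 2.23 and 1.79 for gamma-H2AX against 1.29 and 1.75 for H2AX. In 24 h replicate 1 the level averaged 1.33 at HBG1 and 0.929 at HBG2 and was 0 at HBB, HBD and HBE1. That track read 0 wherever the 1 h depth was high, so these values are not independent of the 1 h signal. It also read 0 in the bins from 5271001 to 5272000 in HBG1 and from 5276001 to 5277000 in HBG2.

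**Figure D3:**
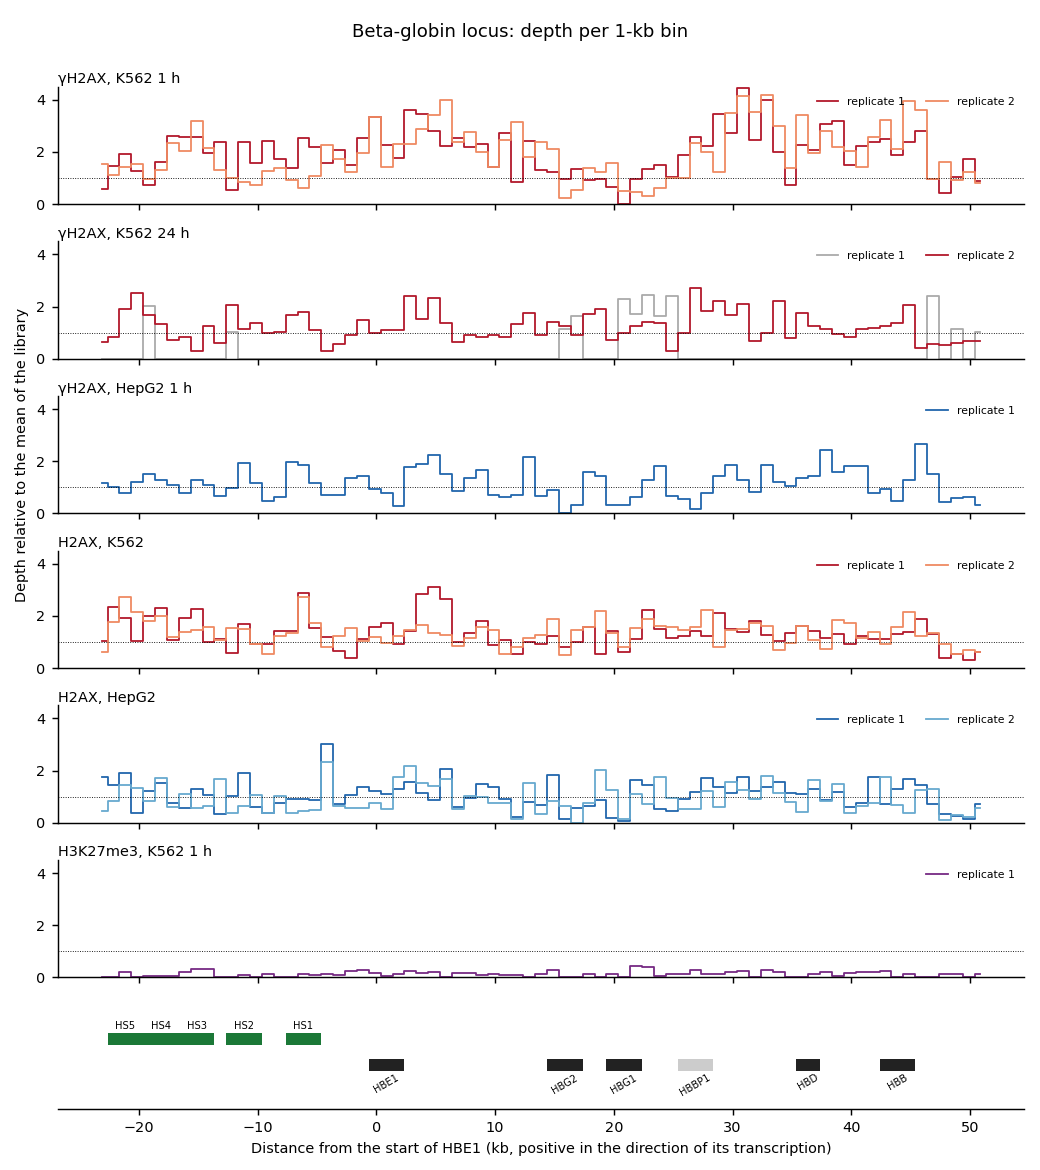
Levels in the 1-kb bins of the beta locus in all 10 libraries, plotted against the distance from the start of HBE1 in kb, with genes downstream to the right and HS1 to HS5 to the left. K562 gamma-H2AX at 1 h was 0.878 and 1.01 over HBG1 and HBG2, between stretches that averaged 2.18 to 2.58.

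Over the 18 kb of the locus control region gamma-H2AX at 1 h read 1.88 and 1.41 and H2AX 1.58 and 1.59 in K562, a ratio of 1.04, and the groups overlapped. Of the 4 windows that touch HS1 to HS5, 0 passed, with a median log2 difference of 0.14. Of the 8 windows that touch a beta member gene 5 were higher, against 7 of 15 over the whole beta locus and 13.5% of all windows tested. HS3 was the one site of 5 with both gamma-H2AX libraries above both H2AX libraries, at 2.37 and 2.46 against 1.73 and 1.48. HS4 gave 1.65 and 1.53 against 1.79 and 1.66, both below, although its log2 ratio moved from −0.12 to 0.00063 with the stretch widened by 1 kb. HS5, the outermost site, gave 1.56 and 1.36 against 1.78 and 2.22, both below. Over the genome 31.5% of windows lay above in this way and 41.8% below, so the counts over these 5 sites are descriptions.

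HS1 and HS2 differed between the 2 gamma-H2AX libraries. HS1 gave 2.02 in replicate 1 and 0.886 in replicate 2, against 1.94 and 1.93 for H2AX. HS2, a classical enhancer, gave 1.50 and 0.862 against 1.07 and 1.31. The H2AX signal itself was high at HS1 and HS5 in K562, where the bins from 5297001 to 5298000 and from 5312001 to 5313000 held the highest and the second highest mean H2AX level of the 75 beta bins, 2.79 and 2.32. In HepG2 those bins ranked 62 and 4. They were chosen as the bins of highest K562 H2AX within HS1 and HS5, so the ranks are a description and not a comparison of the lines.

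**Figure D4:**
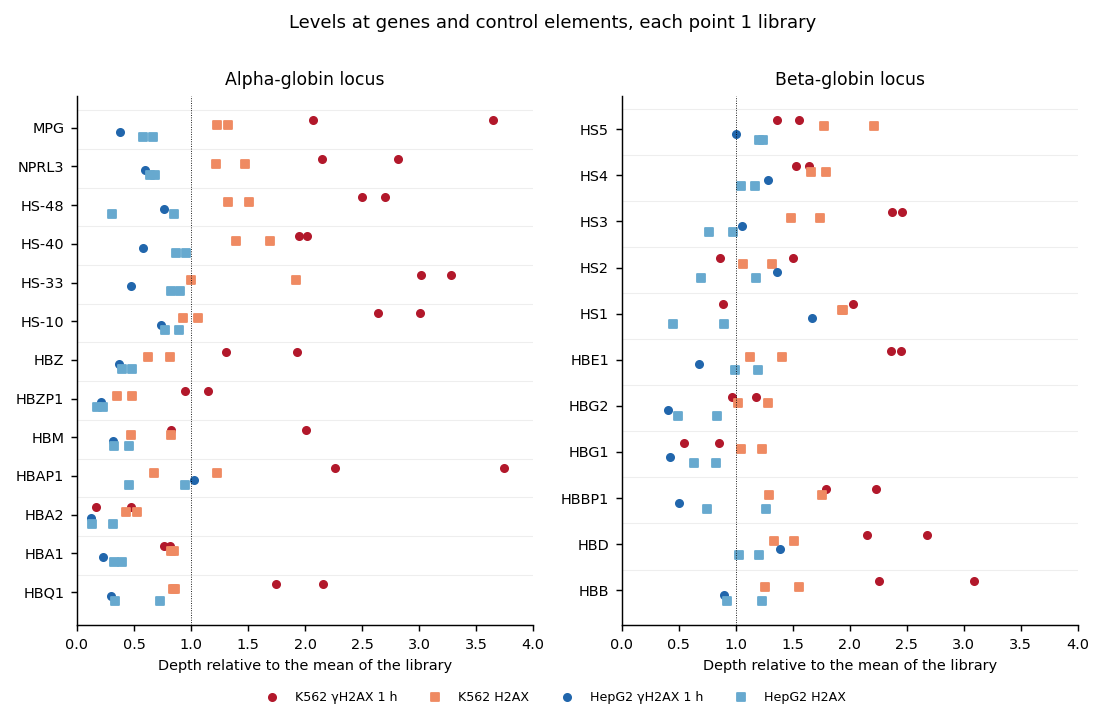
Levels at the genes, pseudogenes and control elements of both loci, each point 1 library (circles gamma-H2AX at 1 h, squares H2AX, red and orange K562, blue HepG2). Both red circles lie right of both orange squares at HBZ, HBQ1, HBB, HBD, HBE1, HS3 and the 4 alpha enhancers. The same holds at MPG, NPRL3, HBZP1, HBAP1 and HBBP1. It does not hold at HBA2, HBA1, HBM, HBG1, HBG2, HS1, HS2, HS4 or HS5.

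The authors' deposited table for K562 1 h replicate 1 lists 4 peaks in the alpha locus and 2 in the beta locus, and the authors' deposited table for replicate 2 lists 7 and 7. They cover 4.19% and 12.5% of the alpha locus and 2.66% and 8.04% of the beta locus, against 1.86% and 2.79% of the binned genome. All 4 alpha peaks of replicate 1, each in NPRL3, overlap a peak of replicate 2, as does 1 of its 2 beta peaks. Within the 2 loci the peak of highest fold in the authors' deposited table is a replicate 2 peak in NPRL3 from 151646 to 152015 with a fold of 2.43 and a −log10 q-value of 1.89, and 94.8% of the peaks of that whole list have a lower fold. It is the one peak of the loci in these lists with q under 0.05. Among members, HBB carries 2 peaks, of replicate 2, in the authors' deposited table, and a further peak of that library from 5291767 to 5292112 touches the bins of HBE1 but not the gene. The lists for 24 h (8 and 13 peaks genome-wide) and HepG2 (170 peaks) hold 0 peaks in either locus, but they have another layout than the 1 h lists, so the numbers were not compared.

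At 24 h the K562 signal, as seen in replicate 2, stood near that of H2AX. It averaged 1.02 over the alpha locus and 1.22 over the beta locus. Against H2AX, 0 of 21 alpha and 0 of 15 beta windows passed in limma, with 0% of windows called genome-wide and medians of −0.20 and −0.16. At an unadjusted p under 0.05 there was 1 window in each locus, and about 60380 of 545744 windows over the genome. The lowest differences were −0.82 (SE 0.31, adjusted p = 0.39) in the window with HS-40 and −0.84 (SE 0.29, adjusted p = 0.37) in the window with HS3 and HS4, in limma. The highest were 0.18 (SE 0.37, adjusted p = 0.88) just downstream of HBZ, in the window from 205001 to 210000, and 0.45 (SE 0.29, adjusted p = 0.58) in the window from 5260001 to 5265000, with HBBP1. Replicate 1 averaged 0.122 and 0.279. When it stood for the group in place of replicate 2, the median differences were −4.62 in the alpha locus and −4.6 in the beta locus.

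Set directly against 24 h replicate 2, gamma-H2AX at 1 h was higher in 15 of 21 alpha and 6 of 15 beta windows, while 36.4% of all windows differed, 12.2% higher and 24.2% lower. The medians were 1.08 and 0.71, against −0.28 over the genome. The 24 h group is 1 library here, so its own spread was not measured and was taken from the groups of 2. With 24 h replicate 1 added, 1 alpha window and 0 beta windows passed, with 18.9% of all windows called. With replicate 1 in place of replicate 2 the medians were 5.49 in the alpha locus and 5.45 in the beta locus. The largest alpha difference was 1.71 (SE 0.32, adjusted p = 0.0018 by limma), in the NPRL3 window from 175001 to 180000, and the largest beta difference 1.38 (SE 0.31, adjusted p = 0.0043), in the window from 5280001 to 5285000. The smallest were −0.47 (SE 0.34, adjusted p = 0.30 by limma) in the window from 185001 to 190000, around the start of NPRL3, and −0.44 (SE 0.39, adjusted p = 0.41) in the window with HBG1 and HBG2. The windows of HBA2 and HBA1 were higher at 1 h than at 24 h, by 1.36 (SE 0.40, adjusted p = 0.017) and 1.34 (SE 0.36, adjusted p = 0.010) in limma. At HBA2 itself replicate 2 read 0.209, between the 1 h levels of 0.168 and 0.473, so no fall was seen at the gene. In its window the bin from 224001 to 225000, outside the gene, read 1.69 and 1.69 at 1 h against 0.140. At HBA1 itself replicate 2 read 0.279, below the 1 h levels of 0.812 and 0.767.

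The other members at 24 h differed from one another. HBQ1 stood at 1.67 in replicate 2, near its 1 h levels of 2.16 and 1.75 and above its H2AX levels. Its window gave 0.86 between 1 h and 24 h (SE 0.34, adjusted p = 0.063 by limma) and did not pass. HBZ read 0.600, just below its H2AX levels. In the beta locus HBB read 1.56, HBD 1.50, HBE1 1.07, HBG1 0.979 and HBG2 1.19 in replicate 2. HBD and HBG2 thus lay within the range of the K562 H2AX libraries, HBB just above it, and HBE1 and HBG1 just below it. The window with HS3 and HS4 was the one locus control region window that was higher at 1 h than at 24 h, by 1.29 (SE 0.29, adjusted p = 0.0044 by limma).

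In HepG2, gamma-H2AX at 1 h passed the threshold against H2AX in no window of the loci. The single gamma-H2AX library averaged 0.553 over the alpha locus, against 0.671 and 0.657 for H2AX, and 1.13 over the beta locus, against 1.05 and 0.921. In limma 0 alpha and 0 beta windows passed, with 0.000366% of windows called genome-wide, and 3 alpha windows and 1 beta window had an unadjusted p under 0.05. Over the genome about 48410 of 545744 windows had such a p. The median log2 difference was −0.30 in the alpha locus and 0.16 in the beta locus. Alpha differences ran from −1.20 in the window of HBZ to 0.75 (SE 0.37, adjusted p = 0.58 by limma) in that from 150001 to 155000, with HS-48. The beta ones ran from −0.14 (SE 0.29, adjusted p = 0.93), with HBBP1, to 0.87 (SE 0.29, adjusted p = 0.39), in a window of HBD. With 1 library, the spread of this group was taken from the groups of 2.

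Member by member the HepG2 library lay below both HepG2 H2AX libraries at 8 of 9 genes. Over the genome it lay below both in 38.6% of windows and above both in 36.7%, in the alpha locus below in 11 of 21 and above in 6, and in the beta locus below in 1 of 15 and above in 5. The counts over genes and elements are thus descriptions, and that of the beta genes differs from that of the windows around them. The alpha-chain genes read 0.119 for HBA2, from 3 reads against 4 and 10 in the H2AX libraries, and 0.230 for HBA1, HBZ read 0.369 and HBQ1 0.299. In the beta locus HBB read 0.897, HBE1 0.680, HBG1 0.424 and HBG2 0.410. HBD was the exception at 1.38 against 1.20 and 1.03. Of the beta control elements, HS1 to HS4 lay above both H2AX libraries, with HS1 at 1.67 against 0.901 and 0.446, and HS5 lay below at 1.00 against 1.24 and 1.20. The median log2 difference was 0.17 over the 4 windows that touch HS1 to HS5 and 0.22 over the 8 that touch a beta member. Of the alpha enhancers HS-40, HS-33 and HS-10 lay below both and HS-48 between them.

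The difference between the lines was tested directly, as gamma-H2AX over H2AX in K562 minus the same in HepG2. It was positive past the threshold in 7 of 21 alpha windows and in 0 of 15 beta windows, while 16.2% of all windows differed and 5.38% were higher in K562. The medians were 0.98 in the alpha locus, 0.29 in the beta locus and −0.18 over the genome. The largest was in the window that holds HBZ, 2.03 (SE 0.45, adjusted p = 0.013 by limma), where gamma-H2AX was 0.83 above H2AX in K562 and HepG2 gave −1.20 (SE 0.35, adjusted p = 0.32). Within this window the HepG2 libraries were furthest apart in the 2 bins upstream of the gene, where gamma-H2AX read 0 and 0.475 against 1.54 and 1.49 in H2AX replicate 1 and 1.11 and 1.17 in replicate 2. Over HBZ itself the HepG2 ratio was 0.847, from 0.369 against 0.391 and 0.481. The window with HS-33 differed by 1.89 (SE 0.40, adjusted p = 0.012) and that with HS-10 by 1.69 (SE 0.40, adjusted p = 0.016) in limma. All 7 windows were also higher than H2AX in K562 alone. The smallest alpha difference was −0.56 (SE 0.44, adjusted p = 0.40 by limma), in the window from 185001 to 190000.

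In the beta locus no member window reached the threshold in this test. The largest value, 1.02 (SE 0.38, adjusted p = 0.076 by limma), was in the window from 5260001 to 5265000, with HBBP1. HBB gave 0.83 (SE 0.41, adjusted p = 0.16 by limma), the HBG1 and HBG2 window −0.77 (SE 0.51, adjusted p = 0.31), and the HBE1 windows 0.69 (SE 0.40, adjusted p = 0.24) and 0.53 (SE 0.45, adjusted p = 0.43). Without any one of the 4 H2AX libraries, or with 24 h replicate 1 added, 0 of 36 windows passed and the share called over the genome also went from 16.2% to 0%. The alpha median in those fits was 0.92 to 1.22. Without K562 1 h replicate 1 there were 11 alpha windows and 3 beta windows higher and 1 beta window lower, with 39.4% of all windows called. HepG2 has 1 gamma-H2AX library, so a trait of that library and a trait of the line cannot be told apart.

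H2AX itself differed between the lines over the alpha locus. The level was 1.25 and 1.13 in K562 against 0.671 and 0.657 in HepG2, a ratio of 1.79, and 12 of 21 alpha windows were higher in K562, with 17.5% of all windows differing, 8.71% higher and 8.79% lower. The flanks gave similar ratios of 1.63 and 1.88. Chromosome 16 as a whole stood at 1.15 and 1.10 in K562 and 1.31 and 1.30 in HepG2. In the beta locus the levels were 1.34 and 1.36 against 1.05 and 0.921 and 0 of 15 windows passed in limma, with 3 at an unadjusted p under 0.05. Over the genome about 182100 of 545744 windows had such a p. The largest alpha difference, 1.49 (SE 0.30, adjusted p = 0.0066 by limma), lay in the NPRL3 window with HS-48. The windows of HBA2, HBA1 and HBQ1 were higher by 1.14 (SE 0.33, adjusted p = 0.028), 1.07 (SE 0.29, adjusted p = 0.023) and 1.32 (SE 0.28, adjusted p = 0.0080) in limma, and that of HBZ gave 0.42 (SE 0.28, adjusted p = 0.33). The smallest alpha difference was −0.08 (SE 0.30, adjusted p = 0.89 by limma), in the window from 205001 to 210000. Beta differences ran from 0.18 (SE 0.25, adjusted p = 0.64), at HBE1, to 0.94 (SE 0.32, adjusted p = 0.056), in the window with HBG1 and HBG2. Leaving out any one H2AX library of either line left 0 or 1 window past the threshold, with 0.436% to 0.981% of all windows called. Adding 24 h replicate 1 left 0, here and over the genome. The number of copies of each locus in the 2 lines was not measured, so copy number and H2AX per copy cannot be told apart.

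H3K27me3 was low over both loci in irradiated K562. The single library averaged 0.0962 over the alpha locus and 0.118 over the beta locus. In it 48 of 105 alpha and 20 of 75 beta bins read 0, against 27.1% of all bins. The beta count was thus near the genome share. No bin of the loci was at or above the library mean, against 26.4% of all bins. In limma H3K27me3 was lower than H2AX in 21 of 21 alpha windows and 15 of 15 beta windows, where 81.9% of all windows differed, 62.6% lower and 19.3% higher. The mark has 1 library, so its own spread was not measured and was taken from the groups of 2. The medians were −3.22 and −2.83, against −1.91 over the genome. Under median-of-ratios scaling, which raised this library by 1.8 on the log2 scale, the medians were −1.69 and −1.23, against −0.14 over the genome. In that fit 18 alpha and 13 beta windows passed, with 81.6% of all windows called. With 24 h replicate 1 added, 5 alpha and 6 beta windows passed, with 50.5% of all windows called. The highest alpha bins lay just downstream of HBZ, where the bin from 208001 to 209000 read 0.603, and the 2 windows there differed least, by −1.60 (SE 0.37, adjusted p = 0.00086) and −1.35 (SE 0.35, adjusted p = 0.0024) in limma. Under median-of-ratios scaling those 2 windows turned to 0.28 and 0.49. The lowest values were −4.28 (SE 0.31, adjusted p = 4.2e-08 by limma) in the window with HS-40 and −4.10 (SE 0.31, adjusted p = 5.0e-08) in that with HS4 and HS5, and the beta window that differed least, at HBE1, gave −2.44 (SE 0.35, adjusted p = 1.1e-05). HBZ read 0.221 and HBG1 0.184, the highest of the members, and HBQ1 read 0.

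Bins of a locus followed one another only loosely between libraries. Across the 105 alpha bins the 2 K562 gamma-H2AX libraries at 1 h had a Pearson r of 0.68 (Spearman rho 0.623), and their mean had an r of 0.51 (rho 0.449) with the mean of K562 H2AX. Across the 75 beta bins the values were 0.619 (rho 0.606) and 0.24 (rho 0.257). Bins are not independent replicates and share base composition and mappability, so these are descriptions. The 2 K562 H2AX libraries had an r of 0.447 (rho 0.425) with each other across the alpha bins and 0.424 (rho 0.445) across the beta bins.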

How the data were processed

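CUT&RUN reads had been aligned to hg19, and BWA 0.7.12, SAMtools and MACS2 were used, per the submitters' processing notes; their settings are not given in the sources used here. The deposited tracks hold coverage, read here as mean depth per base in 1-kb bins, with no scaling to library size. The deposited peak lists give a fold over control and the significance of each peak as −log10 of its p-value and its q-value, called per library.

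Levels are depth divided by the library mean. Windows of 5 kb with at least 50% of their bins and a mean H2AX level of at least 0.25 in both lines were tested with limma 3.58.1 (R 4.3.3, trend) on log2(level + 0.05) in 1 fit of 9 libraries and 6 groups, leaving 3 residual degrees of freedom. K562 24 h replicate 1 was left out because of its zeros and added as an alternative. Fold changes on this scale understate the change of low bins. Element levels are means of all bins touched, in stretches of 3 kb for control elements, with no test, since an exact permutation test of 2 against 2 libraries cannot go below 0.333. Named were all members, the other genes and control elements of the loci and, per comparison and locus, the windows of largest and smallest difference; the rule took 3 of each, of which the outermost are printed. The members, lists and tests were chosen with earlier results of these data known. The fit was tested on simulated data. Likeness to other genes and an erythroid gene list, planned for the case that an hg19 annotation was at hand, were not analysed here. Alternatives changed the pseudocount, scaling, filter, window size, libraries and replicate block.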

Additional observations from a re-analysis of the deposited data

Results flagged for a closer look

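In 7 windows of the alpha locus the log2 difference between gamma-H2AX at 1 h and H2AX was larger in K562 than in HepG2 by a direct test of the difference in limma (main adjusted p between 0.012 and 0.039). The difference was 1.59 in the MPG window from 130001 to 135000, 1.65 in the NPRL3 window from 145001 to 150000, 1.89 in the window with HS-33 from 170001 to 175000 and 1.30 in the NPRL3 window from 180001 to 185000. It was 1.69 in the window with HS-10 from 190001 to 195000, 1.74 in the window from 195001 to 200000 between HS-10 and HBZ and 2.03 in the HBZ window from 200001 to 205000. Of the 15 beta windows 0 passed this test. HepG2 has 1 gamma-H2AX library, and the 7 calls were lost without any one of the 4 H2AX libraries, as were the calls over the genome (16.2% of windows, and 0% in those fits).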

How the results depend on the processing

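Values are the percent of locus windows past the threshold, each followed by the percent of all windows tested. For K562 1 h against H2AX it was 58.33% (45.4%), with 5.325% (8.06%) in 1-kb bins, 0% (0%) with 24 h replicate 1 added and 11.11% to 75.0% (23.8% to 55.1%) on leaving out 1 library. For 1 h against 24 h it was 58.33% (36.4%), with 5.917% (4.94%) in 1-kb bins, 2.778% (18.9%) with 24 h replicate 1 and 44.44% to 91.67% (28% to 74.9%) on leaving out 1 library. For 24 h against H2AX it was 0% (0%), with 5.556% (6.59%) when only the compared libraries were fitted and 0% to 88.89% (0% to 44.8%) on leaving out 1 library. For HepG2 gamma-H2AX against H2AX it was 0% (0.000366%), with 1.183% (0.877%) in 1-kb bins and 0% to 5.556% (0% to 2.91%) on leaving out 1 library. For the difference between the lines it was 19.44% (16.2%), with 11.11% (7.83%) without the filter on H2AX, 35.29% (28.8%) in 10-kb windows, 1.183% (0.372%) in 1-kb bins, 0% (0%) with 24 h replicate 1 and 0% to 41.67% (0% to 39.4%) on leaving out 1 library. For K562 against HepG2 H2AX it was 33.33% (17.5%), with 19.44% (11.8%) without the filter, 0% (0.284%) in 1-kb bins, 0% (0%) with 24 h replicate 1, 52.78% (35.2%) when only the compared libraries were fitted and 0% to 50% (0.436% to 34.7%) on leaving out 1 library. For H3K27me3 it was 100% (81.9%), with 30.56% (50.5%) with 24 h replicate 1, 86.11% (81.6%) under median-of-ratios scaling and 100% (76.3% to 86.6%) on leaving out any library. A 1-kb bin holds fewer reads, and the cause of the other changes was not tested. Median-of-ratios scaling moved the genome median of 1 h against H2AX from −0.10 to 0.09, and 17 alpha and 9 beta windows were then higher. The share of all windows higher in that fit is not given here, so these 2 counts are descriptions. The same scaling turned the H3K27me3 windows from 205001 and 210001 to 0.28 and 0.49. Among elements, the log2 ratio of HBA1 turned to 0.43 with a widened stretch and 0.0114 with scaling by chromosome, and that of HS4 turned to 0.00063 with a widened stretch. Of peaks with q under 0.05 there were 0 in the alpha locus and 0 in the beta locus for 1 h replicate 1, and 1 and 0 for replicate 2.

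Replicate numbers did not pair the libraries, since the correlations of replicate differences between groups were 0.0411, 0.0106 and 0.0273. With the replicate block the percentages, in the same order, were 58.33%, 55.56%, 0%, 0%, 13.89%, 36.11% and 100%. Depth limits single bins, and levels at HBA1, HBA2, HBG1 and HBG2 are further limited by near-identical copies.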
